A study of Mus musculus with 3 samples.

Results

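The insulin-like growth factor (IGF) genes Igf1, Igf2, Igf1r, Igf2r, Insr, Irs1, Irs2, Igfbp2, Igfbp5 and Igfbpl1 were followed in single-cell mRNA counts of 3 mouse medulloblastomas. These 10 members were chosen by name from the 19744 genes of the count tables, and all 10 were found there. Each tumour came from a separate G-Smo mouse on a C57BL/6 background, of genotype hGFAP-Cre/SmoM2, in which Cre under a human GFAP promoter turns on SmoM2. SmoM2 is a constitutively active Smoothened, which drives Hedgehog signalling, and this Cre acts in neural progenitors that give rise to more than the granule neurons of the cerebellum. All 3 mice were treated with POx-palbo, a nanoparticle form of the CDK4/6 inhibitor palbociclib, injected intraperitoneally at 25 mg/kg once a day for 5 days from postnatal day 10, and tumours were taken on postnatal day 16. The 3 tumours form 1 group and untreated tumours are not analysed here, so no value below is an effect of the drug. Comparisons are between sets of barcodes within the same tumours.

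IGF1 and IGF2 are secreted ligands that act through the receptor kinase IGF1R and, for IGF2, also through the insulin receptor INSR. The adaptors IRS1 and IRS2 carry the signal to PI3 kinase and AKT, IGF2R takes IGF2 up for degradation, and IGF-binding proteins hold the ligands outside the cell and set how much reaches the receptors. In the developing cerebellum IGF signalling acts with Hedgehog signalling on the proliferation of granule neuron progenitors, and Igf2 was needed for tumour formation in Hedgehog-driven mouse models.

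The libraries were shallow. Tumours 1, 2 and 3 held 8827, 2330 and 9802 barcodes with 1150463, 248617 and 1324350 counts of unique molecular identifiers, and median depths of 84, 85 and 105 counts. Barcodes of at least 200 counts, used for everything said of single cells, numbered 1060, 148 and 1059. Tumour 2 stood apart, with 11.4% mitochondrial counts against 3.97% in tumour 1 and 5.61% in tumour 3, and with 29 of its barcodes called doublets, against 6 in each of the others. The 3 pairs of libraries shared 3 to 8 barcode sequences, and 0 among barcodes of at least 200 counts. All 14 granule neuron progenitor markers and all 10 granule neuron markers had counts. They took 1.09% to 1.17% and 0.662% to 0.887% of the totals of the tumours. Since 19437 of the 19744 genes had a count, detection alone does not bear out the labelled tissue.

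Over whole tumours, Igfbpl1 was the one member with abundant mRNA. Igfbpl1, which encodes a secreted protein that resembles the IGF-binding proteins, had 910, 132 and 1068 counts in tumours 1, 2 and 3, which is 791, 531 and 806 counts-per-million (CPM). By summed counts it ranked 113 among the 19437 genes with a count. Counts here are of 3′ ends of molecules and are not divided by transcript length. Tumour 2 was the lowest of the 3, with an exact Poisson 95% interval of 444 to 630 CPM, below the intervals of tumours 1 (740 to 844) and 3 (759 to 856). These intervals, and all those below, cover counting error only.

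The ligands were sparse and differed between tumours. Igf2 had 169, 4 and 147 counts in tumours 1, 2 and 3, or 147, 16.1 and 111 CPM. Tumour 2 was again lowest, and its interval of 4.38 to 41.2 CPM lay below those of tumours 1 (126 to 171) and 3 (93.8 to 130). Igf1 had 14, 10 and 36 counts, or 12.2, 40.2 and 27.2 CPM, lowest in tumour 1. In such totals, fewer cells of a type and less RNA per cell cannot be told apart.

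Receptor and adaptor mRNA was low in all 3 tumours. Igf1r had 37, 6 and 32 counts (32.2, 24.1 and 24.2 CPM) in tumours 1, 2 and 3, and the 3 intervals overlapped. Igf2r had 19, 6 and 23 counts (16.5, 24.1 and 17.4 CPM), and Insr 54, 15 and 36 (46.9, 60.3 and 27.2 CPM). Irs1 was highest in tumour 1, with 105, 14 and 48 counts in tumours 1, 2 and 3 (91.3, 56.3 and 36.2 CPM), and the interval of tumour 1, 74.6 to 110 CPM, lay above that of tumour 3, 26.7 to 48.1. Irs2 had 27, 4 and 38 counts (23.5, 16.1 and 28.7 CPM). Averaged over the tumours, Irs1 stood at 61.3 ± 27.8 CPM, Insr at 44.8 ± 16.7, Igf1r at 26.8 ± 4.63, Irs2 at 22.8 ± 6.33 and Igf2r at 19.3 ± 4.17 (SD, n = 3 tumours), and the values of neighbours in this order overlapped.

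The classical binding proteins were also rare. Igfbp2, a binding protein of glia and fetal tissues, had 34, 2 and 20 counts (29.6, 8.04 and 15.1 CPM) in tumours 1, 2 and 3. Igfbp5, which also binds extracellular matrix, had 22, 18 and 42 counts (19.1, 72.4 and 31.7 CPM). Tumour 2 was highest for Igfbp5, but 10 of its 18 counts came from 1 barcode. Mean levels were 41.1 ± 27.8 CPM for Igfbp5 and 17.6 ± 11.0 CPM for Igfbp2 (SD, n = 3 tumours).

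**Figure D1:**
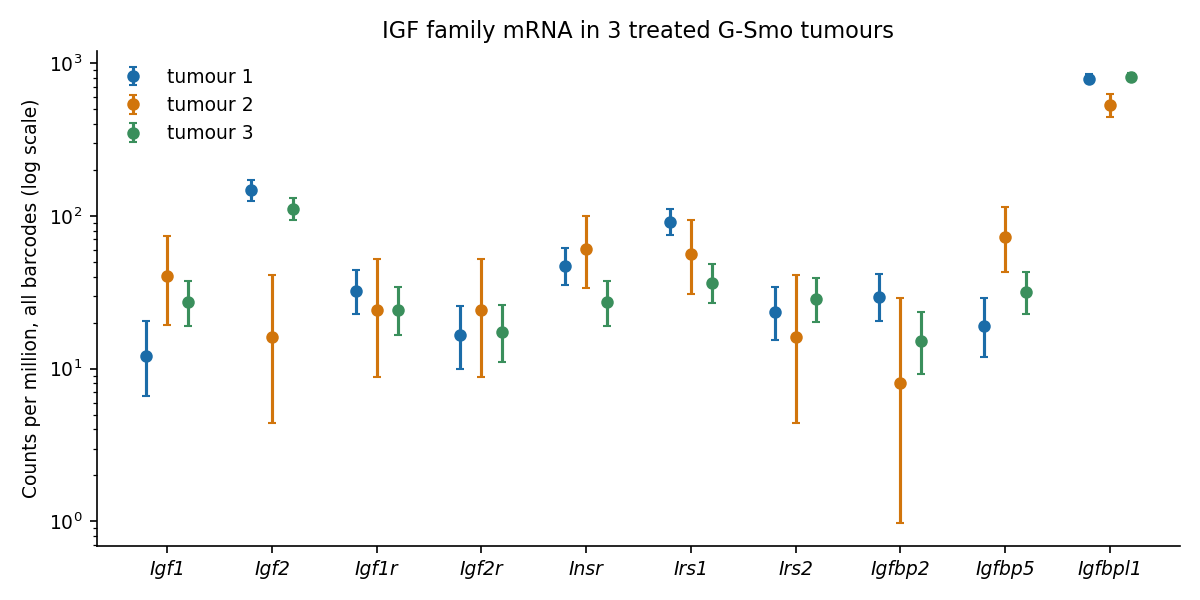
Level of each of the 10 IGF genes in tumours 1, 2 and 3, in CPM over all barcodes on a log axis, with exact Poisson 95% intervals for counting error. Igfbpl1 lies at 531 to 806 CPM in the 3 tumours, and Igf2 in tumour 2 (16.1 CPM) lies below tumours 1 and 3 (147 and 111 CPM).

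Of the 35 other pathway genes listed, 31 were in the tables and all 31 had a count. Gsk3b, a kinase inhibited by AKT, was the most abundant of them at 422, 434 and 344 CPM in tumours 1, 2 and 3. Pik3ca, the catalytic subunit of PI3 kinase, averaged 83.8 ± 17.1 CPM and Ide, a protease that degrades insulin, 82.3 ± 8.58 CPM (SD, n = 3 tumours). The other IGF-binding proteins were sparse, with 51 counts for Igfbp7 over the 3 tumours, 17 for Igfbp3, 14 for Igfbp4 and 1 for Igfbp6.

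Most deep barcodes held none of the members. Of barcodes of at least 200 counts, 738, 122 and 769 in tumours 1, 2 and 3 had no count of any of the 10 genes. Igfbpl1 was found in 216 of 1060 (20.4%), 14 of 148 (9.46%) and 222 of 1059 (21.0%). No other member reached 50 barcodes in any tumour. Irs1 was found in 47, 3 and 18 barcodes, Igf2 in 31, 0 and 17, Igf1r in 24, 3 and 13, and Insr in 23, 5 and 14. Igf2 and Igf1r were counted together in 2 barcodes, Igf2 and Insr in 1, and Igf1 and Igf1r in 0. Igfbpl1, the most often detected member, was found beside Insr in 15 barcodes, Irs1 in 15 and Igf1r in 14. No pattern is read from these pairs. At these depths a missing count does not show that a gene was silent.

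To ask which cells held the members, barcodes of at least 200 counts were classed by cell type markers. A barcode was called when it held at least 3 counts from at least 2 genes of a list, making up at least 1% of its counts, and a barcode with no such call was kept as lineage. This gave 38 myeloid (14, 5 and 19 in tumours 1, 2 and 3), 10 vascular (5, 2 and 3), 20 astrocyte (15, 0 and 5), 11 oligodendrocyte, 3 fibroblast or choroid plexus, 2 erythroid and 4 mixed barcodes, and 2179 lineage barcodes (1015, 138 and 1026). Median depths were 402 counts for myeloid, 733 for vascular, 388 for astrocyte and 311 for lineage barcodes. Myeloid markers took 4.06%, 4.02% and 3.37% of counts in the myeloid barcodes of tumours 1, 2 and 3, against 0.0332%, 0.0313% and 0.0291% in lineage barcodes, and all 17 of them were detected. Free RNA can reach every class, so low shares in lineage barcodes are not read as expression.

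Igf1 was concentrated in myeloid barcodes. Myeloid barcodes held 2, 3 and 3 Igf1 counts in tumours 1, 2 and 3, against 3, 0 and 3 in the far larger lineage sets. Pooled, this is 8 counts of 25388 in 5 of 38 myeloid barcodes, or 315 CPM (interval 136 to 621), against 6 counts of 855978, or 7.01 CPM (2.57 to 15.3), in 5 of 2179 lineage barcodes. The myeloid value was higher than the lineage value in each tumour, at 282 against 6.81 CPM in tumour 1, 913 against 0 in tumour 2 and 200 against 7.95 in tumour 3. In tumour 2 all 3 counts lay in 1 barcode of 1678 counts, which also held 78 counts of myeloid markers. After thinning to 200 counts, Igf1 was left in 1 of 38 myeloid and 3 of 2179 lineage barcodes. Read from the other side, myeloid markers took 2.53% of the counts of barcodes with Igf1 and 0.103% of those without, and vascular markers 0.313% and 0.0359%. In barcodes under 200 counts, myeloid markers took 0.0713% with Igf1 and 0.0919% without.

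Igfbpl1 showed the opposite distribution. It had 2, 1 and 0 counts in myeloid barcodes of tumours 1, 2 and 3, against 292, 15 and 325 in lineage barcodes. That is 118 CPM (24.4 to 345) in myeloid barcodes, against 738 CPM (682 to 798) in lineage barcodes. It was detected in 3 of 38 myeloid barcodes (7.89%) at a median depth of 402 counts, and in 445 of 2179 lineage barcodes (20.4%) at a median of 311. Thinned to 200 counts, it was found in 0 of 38 myeloid barcodes, which allows up to 9.25% by the exact binomial interval, and in 12.9% of lineage barcodes (11.9%, 7.25% and 14.6% in tumours 1, 2 and 3).

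Across all genes, myeloid sums were tested against lineage sums of the same tumour with edgeR's quasi-likelihood test. Of 1916 genes tested, 458 passed a Benjamini-Hochberg adjusted p of 0.05, which is 23.9%, with 146 higher (7.62%) and 312 lower (16.3%). Only 2 of the 10 members passed the filter on low counts, which is applied to the CPM of each sum, and both passed the test. Igfbpl1 fell by 3.02 (log2; SE 0.85, edgeR with Benjamini-Hochberg adjusted p = 0.00388), where the median of all genes tested was -1.17. Igf1 rose by 4.61 (SE 0.85, edgeR with Benjamini-Hochberg adjusted p = 2.33e-06), but it passed the filter on low counts only through the myeloid set and so could hardly fail to differ. Igf1 lost its call without tumour 2 (log2 4.02, adjusted p = 0.460 in edgeR) and with no filter on low counts (4.21, 0.123). It also lost it without doublets (4.01, 0.454) and with at most 10% mitochondrial counts and at least 100 genes (3.76, 0.761). But these limits left tumour 2 with 4 and 2 myeloid barcodes, too few to enter the fit, so they removed that tumour as well. Igfbpl1 lost its call without tumour 3 (log2 -1.52, adjusted p = 0.555 in edgeR), with the mitochondrial limit on tumours 1 and 3 alone (-3.69, 0.295), in DESeq2 (-2.72, 0.0645) and with no limit on the marker share, chosen after seeing the data (-1.70, 0.192). In tumour 3 the myeloid set also held 34 counts of vascular markers, against 0 in tumours 1 and 2, and their part in the result was not tested. Neither of the other pathway genes tested, Gsk3b and Pik3ca, passed.

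Igfbp2 counts gathered in astrocyte barcodes of tumour 1. There 4 of 15 barcodes held 7 counts, and the 5 astrocyte barcodes of tumour 3 held 0. Pooled, this is 657 CPM (264 to 1353) in astrocyte barcodes, against 5 counts or 5.84 CPM (1.90 to 13.6) in lineage barcodes. Astrocyte markers such as Slc1a3, a glutamate transporter, took 4.60% of counts in the astrocyte barcodes of tumour 1 and 1.25% in those of tumour 3. Thinned to 200 counts, Igfbp2 was left in 0 of 20 astrocyte barcodes and 3 of 2179 lineage barcodes. In the edgeR test of astrocyte against lineage sums, run on tumours 1 and 3, 6 of 7788 genes passed (0.077%), and 0 of the 8 members tested did, with 1 member at an unadjusted p under 0.05. That member was Igfbpl1, at 4 and 0 counts in astrocyte barcodes of tumours 1 and 3 against 292 and 325 in lineage barcodes, a log2 difference of -2.35 (SE 1.05, edgeR with Benjamini-Hochberg adjusted p = 0.739), where the median of all genes tested was -5.26. Igfbp2 did not pass the filter on low counts for that test, since its level was high in only 1 of the sums.

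Igfbp5 had most of its deep-barcode counts in a handful of barcodes with fibroblast markers. The 3 fibroblast or choroid plexus barcodes, 1 in each tumour, held 3, 10 and 3 Igfbp5 counts in tumours 1, 2 and 3, in totals of 276, 372 and 389 counts. A further 7 counts lay in mixed barcodes, 4 of them in 1 barcode of tumour 1 and 3 in 1 barcode of tumour 3, both of which held fibroblast markers too. Lineage barcodes held 10 counts in all, or 11.7 CPM (5.60 to 21.5), against 15429 CPM (8819 to 25056) in the 3 fibroblast or choroid plexus barcodes. Those 3 barcodes held 10 counts of Col1a2, 9 of Col3a1 and 2 of Col1a1, which encode fibrillar collagen chains, 2 of Dcn and 3 of Lum. They held 0 of the choroid plexus markers Ttr, Kl and Clic6, and also 0 of Slc6a13 and Ptgds, the other genes of this list in the data. Igf2, a ligand that mesenchymal cells of the meninges are known to make, had 1, 0 and 2 counts in the same barcodes of tumours 1, 2 and 3, and 3 counts in mixed barcodes. Fibroblast and choroid plexus markers took 0.433% of counts in barcodes with Igfbp5 and 0.00843% in those without, and 0.122% in barcodes with Igf2 and 0.00877% in those without. Barcodes with Igfbp5 also held more astrocyte (1.14% against 0.167%) and myeloid markers (0.920% against 0.123%). Under 200 counts the fibroblast and choroid plexus share was 0.0233% with Igfbp5 and 0.0167% without, and 0.0207% with Igf2 and 0.0167% without. Barcodes so few allow no test.

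Lineage barcodes held 31, 0 and 19 Igf2 counts in tumours 1, 2 and 3, or 58.4 CPM (43.4 to 77.0). These are 50 of 62 deep Igf2 counts (80.6%), where lineage barcodes held 94.0% of all deep counts. The myeloid and vascular sets held 2 Igf2 counts each. Igf2 overlaps the antisense gene Igf2os, which had 6 counts. The use of strand in counting is not given in the sources used here. Where the genes overlap, reads of such a pair may therefore not have been told apart. The same holds for Igf2r with Airn (20 counts) and Irs1 with Gm9747 (27 counts). These overlaps are of whole gene spans, and whether they reach the counted 3′ ends was not tested.

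Insr was counted in vascular barcodes of all 3 tumours, with 1 count in each, in 3 of 10 barcodes. That is 271 CPM (55.9 to 792) in vascular barcodes, against 40 counts or 46.7 CPM (33.4 to 63.6) in lineage barcodes, so the intervals overlapped. Thinned to 200 counts, Insr was left in 0 of 10 vascular barcodes and 16 of 2179 lineage barcodes. Vascular markers took 0.434% of counts in barcodes with Insr and 0.0236% in those without, astrocyte markers 0.468% and 0.166%, and myeloid markers 0.321% and 0.124%. In barcodes under 200 counts, those with Insr held 0 vascular marker counts of 5035. Among genes with at least 20 counts in the 42 barcodes that held Insr, those most enriched there by ratio of pooled CPM were Cldn5, a tight junction protein of brain endothelium (log2 ratio 5.12), the thyroid hormone transporter gene Slco1c1 (4.14), the membrane protein gene Itm2a (4.10), Fam101b (4.08) and the monocarboxylate transporter gene Slc16a1 (3.66). The 33 Cldn5 counts came from 4 barcodes, with 16 in 1 of them. No test of vascular against lineage sums was made, because only 1 tumour had 5 vascular barcodes. Of the other binding proteins, Igfbp7, which endothelial cells are known to make, had 16 counts in vascular barcodes and 0 in lineage barcodes, and it had 2 in myeloid and 2 in fibroblast or choroid plexus barcodes.

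For the receptor and adaptor genes Igf1r, Irs1 and Irs2, lineage barcodes held 95.1%, 100% and 89.7% of deep counts, near the 94.0% they held of all deep counts. For Igf2r and Insr they held less, 83.3% and 85.1%. Deep barcodes with Igf2r held more astrocyte (0.612% against 0.169%) and myeloid markers (0.480% against 0.125%) than those without, and fewer vascular markers (0.0116% against 0.0397%). Those with Igf1r held more oligodendrocyte (0.214% against 0.0557%) and vascular markers (0.123% against 0.0366%), and fewer myeloid markers (0.0145% against 0.135%). Igf1r had 23, 3 and 13 lineage counts in tumours 1, 2 and 3, or 45.6 CPM pooled (32.4 to 62.3), and 0 in myeloid barcodes. Irs1 had 51, 3 and 19, or 85.3 CPM (66.8 to 107), and 0 counts in every other class. For 0 of 25388 myeloid counts the exact Poisson interval reaches 145 CPM, so the myeloid level of these genes cannot be set below the lineage level. Irs2 had 10, 1 and 15 lineage counts, or 30.4 CPM (19.8 to 44.5), and 3 counts in 2 myeloid barcodes of tumour 3. Igf2bp1 and Igf2bp3, RNA-binding proteins named for the Igf2 mRNA they bind, had 20 and 27 lineage counts.

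**Figure D2:**
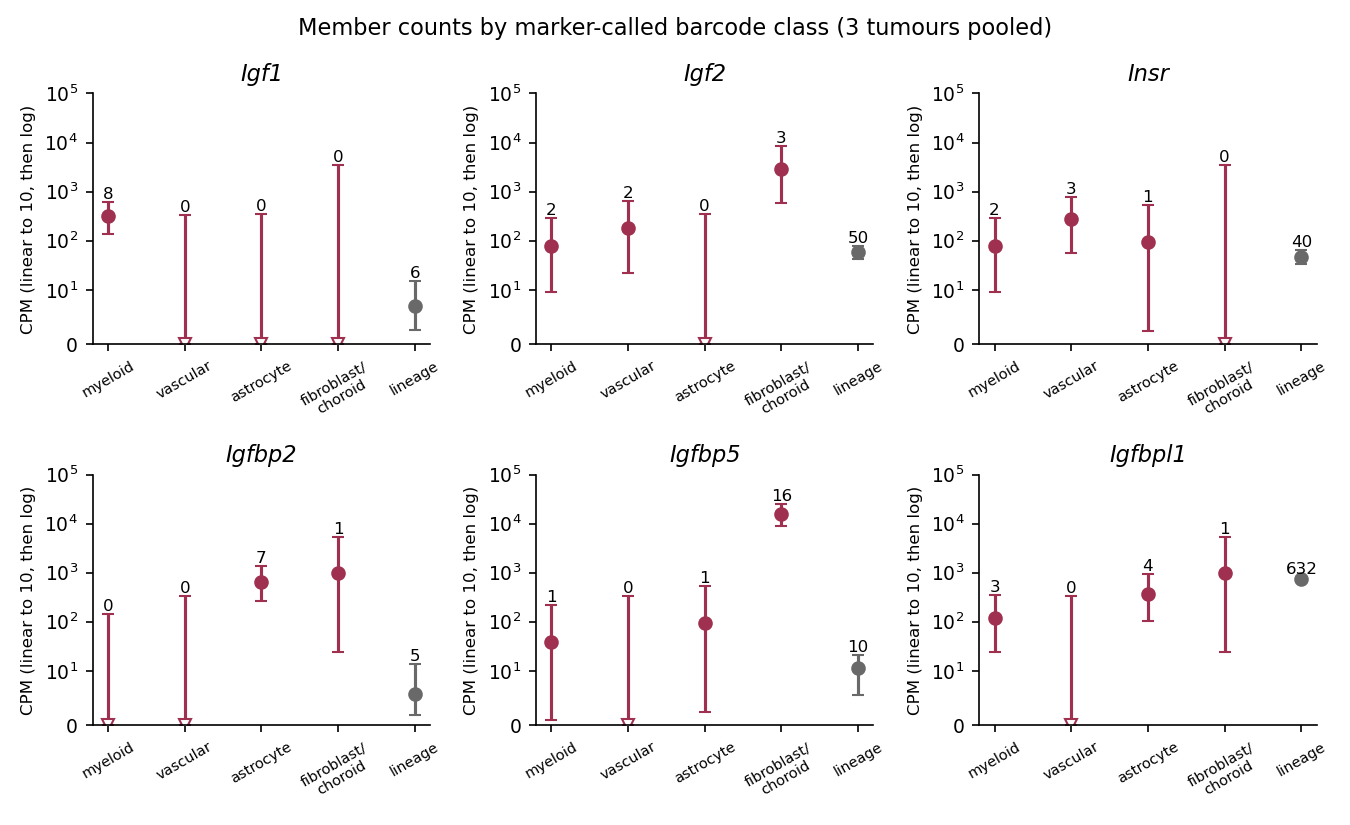
Pooled CPM of 6 members in barcodes of at least 200 counts classed by markers, with exact Poisson 95% intervals, and the number of counts printed above each interval. The axis is linear to 10 and logarithmic above, and open triangles mark a count of 0. Igf1 is highest in myeloid barcodes (8 counts), Igfbp2 has 7 counts in astrocyte barcodes, Igfbp5 has 16 in the 3 fibroblast or choroid plexus barcodes, and 632 counts of Igfbpl1 lie in lineage barcodes.

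Within the lineage, Igfbpl1 was lower in barcodes rich in cell cycle mRNA. Lineage barcodes of each tumour were thinned to 200 counts and ranked by counts of S, G2 and M phase genes, and cut into 3 ranges of near-equal size. The top range was set against the bottom one, and these are ranges of a score, not cell types. Igfbpl1 had 70, 6 and 84 counts in the cycle-high sets of tumours 1, 2 and 3, against 136, 5 and 120 in the cycle-low sets. That is 436, 445 and 598 CPM in cycle-high sets, against 970, 419 and 1008 CPM in cycle-low sets. It was lower in cycle-high sets of tumours 1 and 3 and not of tumour 2, which had only 6 and 5 counts. Of 6568 genes, 231 passed the edgeR test (3.52%), 155 higher (2.36%) and 76 lower (1.16%), and 1 of the 7 members tested did. Igfbpl1 fell by 0.87 (log2; SE 0.18, edgeR with Benjamini-Hochberg adjusted p = 9.16e-05). The call was lost without tumour 1 (log2 -0.60, adjusted p = 0.999 in edgeR), without tumour 3 (-0.93, 0.775), without the tumour block (-0.76, 0.956) and in DESeq2 (-0.79, 0.559).

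The granule neuron list moved with this result. Its genes took 0.402%, 0.564% and 0.427% of counts in cycle-high sets of tumours 1, 2 and 3, against 0.950%, 0.871% and 0.961% in cycle-low sets. Its part in the result was not tested, but both can be read together in pooled lineage barcodes split by thinned counts. Among barcodes with at least 3 cycle counts, Igfbpl1 stood at 582 CPM (469 to 714) with granule neuron counts and 533 CPM (426 to 659) without. Among barcodes with 0 cycle counts it stood at 1010 CPM (857 to 1182) with granule neuron counts and 757 CPM (564 to 996) without. The tumours disagreed on this last pair, at 1165 against 618 CPM in tumour 1 (103 and 24 counts). Tumour 3 went the other way, at 865 against 1009 CPM (51 and 25 counts), as did tumour 2 on 1 and 2 counts (163 against 539 CPM). Ranked by 15 neuronal genes instead, neuronal-high sets held 105, 4 and 108 Igfbpl1 counts (784, 307 and 942 CPM) in tumours 1, 2 and 3, against 82, 7 and 102 (524, 539 and 772 CPM) in neuronal-low sets. That difference was 0.36 (log2; SE 0.20, edgeR with Benjamini-Hochberg adjusted p = 0.542), and tumour 2 went the other way.

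Irs1, an adaptor through which IGF1R and INSR reach PI3 kinase, had fewer counts in neuronal-high than in neuronal-low sets. Neuronal-high sets held 4, 0 and 2 Irs1 counts (29.9, 0 and 17.4 CPM) in tumours 1, 2 and 3, against 25, 1 and 8 (160, 77.0 and 60.5 CPM) in neuronal-low sets. The value was lower in neuronal-high sets of all 3 tumours, yet the difference of -2.22 (log2; SE 0.71) missed the threshold in edgeR (Benjamini-Hochberg adjusted p = 0.0559). In that comparison 182 of 6486 genes passed (2.81%), 118 higher (1.82%) and 64 lower (0.987%), and 0 of the 7 members tested did, with 1 at an unadjusted p under 0.05. Granule neuron markers took 0.358% of counts in barcodes with Irs1 and 0.649% in those without, and mitochondrial counts took 4.79%, 8.48% and 5.18% in neuronal-high sets against 6.33%, 17.2% and 7.06% in neuronal-low sets. With at most 10% mitochondrial counts and at least 100 genes the Irs1 difference shrank to -1.25 (edgeR adjusted p = 0.435), and without doublets to -1.61 (0.194).

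The remaining members did not pass either ranked comparison. Igf2r had 7, 1 and 6 counts in cycle-high sets of tumours 1, 2 and 3, against 2, 0 and 1 in cycle-low sets, a difference of 1.94 (log2; SE 1.05, edgeR with Benjamini-Hochberg adjusted p = 0.552). Irs2 had 5, 1 and 4 counts in cycle-high sets against 0, 0 and 3 in cycle-low sets (adjusted p = 0.817 in edgeR). Igf2, Igf1r and Insr differed by -0.42, -0.56 and -0.29 (log2) between cycle-high and cycle-low sets. Of the 13 other pathway genes tested in each comparison, 0 passed in edgeR, and 2 in each had an unadjusted p under 0.05.

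**Figure D3:**
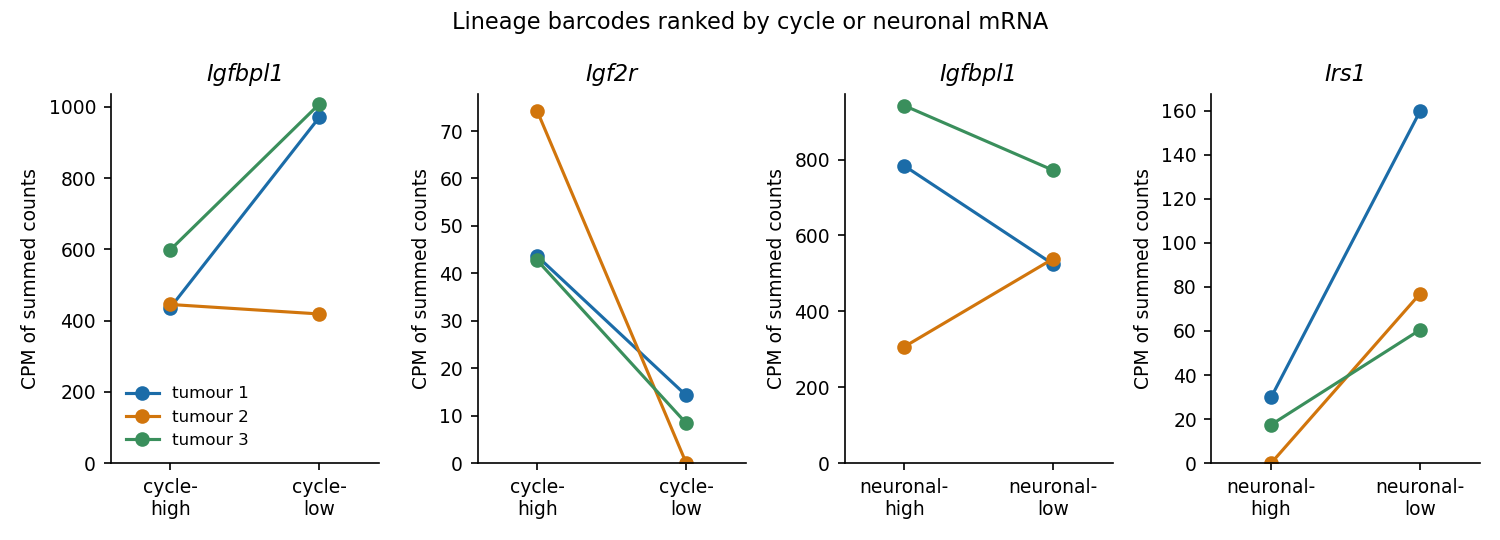
CPM of Igfbpl1 and Igf2r in cycle-high and cycle-low sets, and of Igfbpl1 and Irs1 in neuronal-high and neuronal-low sets, of lineage barcodes, 1 line for each tumour and no error bars. Igfbpl1 is lower in the cycle-high sets of tumours 1 and 3 (436 and 598 CPM against 970 and 1008), and Irs1 is lower in the neuronal-high sets of all 3 tumours.

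The members also differed in how their counts were spread over barcode depth. Barcodes of at least 200 counts were set against those of 50 to 99 counts. Of 10485 genes, 888 passed the edgeR test (8.47%), 300 higher (2.86%) and 588 lower (5.61%), and 3 of 10 members did, 2 higher and 1 lower. Igf2 had 37, 0 and 25 counts in deep barcodes of tumours 1, 2 and 3, against 85, 1 and 48 in shallow ones (79.4, 0 and 62.7 CPM against 193, 8.48 and 138). It fell by 1.24 (log2; SE 0.35, edgeR with Benjamini-Hochberg adjusted p = 0.0105). Igf1r had 24, 3 and 14 counts in deep barcodes against 3, 3 and 5 in shallow ones, and rose by 1.86 (SE 0.57, edgeR with Benjamini-Hochberg adjusted p = 0.0220).

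Igfbp5 had 11, 10 and 14 counts in deep barcodes of tumours 1, 2 and 3, against 6, 2 and 2 in shallow ones, and rose by 2.02 (log2; SE 0.59, edgeR with Benjamini-Hochberg adjusted p = 0.0144). Of its 35 deep counts, 23 came from the fibroblast or choroid plexus and mixed barcodes described above. Myeloid markers took 0.0939%, 0.311% and 0.155% of counts in deep barcodes of tumours 1, 2 and 3, against 0.0986%, 0.0509% and 0.0816% in shallow ones, and mitochondrial counts took 5.64%, 11.1% and 6.30% against 2.26%, 11.5% and 4.82%. Their part in these results was not tested. All 3 calls were lost without tumour 1, without tumour 3 and without the tumour block (edgeR adjusted p between 0.0964 and 0.875), and that of Igfbp5 also without tumour 2 (0.0973). Igfbpl1 had 300, 16 and 325 counts in deep barcodes against 395, 61 and 283 in shallow ones, a difference of -0.36 (log2) that did not pass (edgeR adjusted p = 0.431). Of the 23 other pathway genes tested, 1 passed, the mTOR inhibitor gene Tsc1, at 40, 3 and 40 counts in deep barcodes against 10, 1 and 18 in shallow ones (log2 change 1.45, SE 0.42, edgeR adjusted p = 0.0130), and it too was lost without tumour 1 (0.739) or tumour 3 (0.351).

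**Figure D4:**
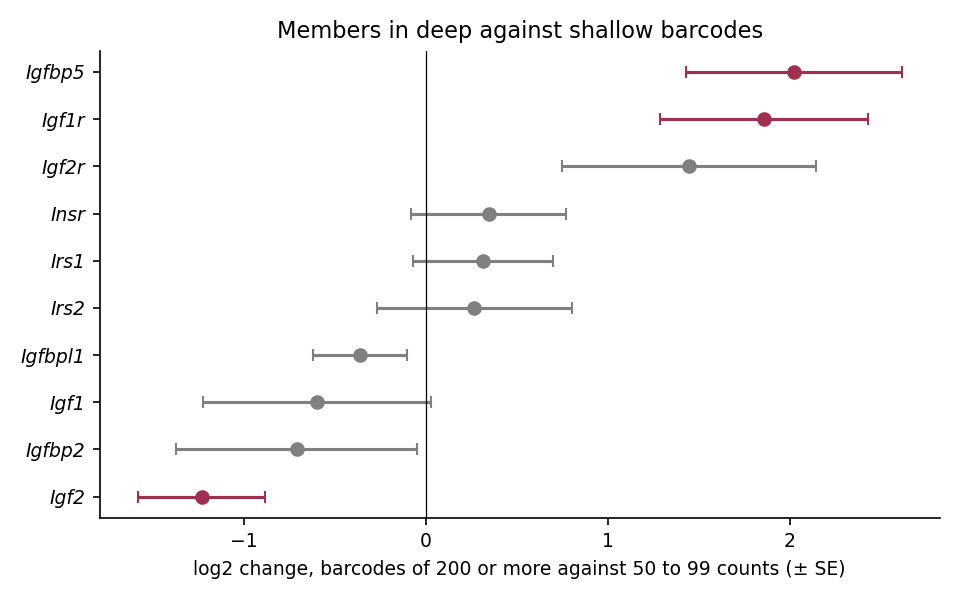
Log2 change of each member in barcodes of at least 200 counts against barcodes of 50 to 99 counts, with SE, from edgeR over 3 tumours with tumour as a block. Red points, Igfbp5 (2.02), Igf1r (1.86) and Igf2 (-1.24), passed a Benjamini-Hochberg adjusted p of 0.05, and grey points did not.

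For the other members with at least 30 barcodes, the genes most enriched beside them are given as a description. Beside Igf2 (48 barcodes) they were the Notch target Hes1 (log2 ratio 2.16), the growth factor Ptn (1.59), the matrix protein gene Sparc (1.21), Dnajc8 (1.13) and Myo5a (0.98). Of the 26 Hes1 counts, 16 came from 1 barcode. Beside Igf1r (40 barcodes) they were Ttc14 (1.47), Clcn3 (1.42), the mitotic kinesin Cenpe (1.25), Myh10 (1.13) and Ank2 (1.08). Of the 32 Cenpe counts, 15 came from 1 barcode, and of the 27 Ank2 counts, 10 came from 1 barcode. Beside Irs1 (68 barcodes) they were Tmpo (1.37), Hsph1 (1.35), Sec61a1 (1.19), 2810474O19Rik (1.16) and Hnrnph1 (1.08), each spread over 13 to 18 barcodes. Beside Igfbpl1 (452 barcodes) they were Chaf1b, a histone chaperone subunit (2.06), Stam (1.66), Ptpn2 (1.51), Taf7 (1.41) and Ilk (1.26), all with 21 to 25 counts in barcodes that held Igfbpl1.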

How the data were processed

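Drop-seq libraries of 3 papain-dissociated tumours were deposited by the authors as tables of raw UMI counts per gene and barcode. The tools STAR and Cell Ranger and the build GRCh38 are named in the submitters' processing notes. Coordinates of that build were left out, because 94.0% of the symbols (96.4% of counts) are mouse gene names. Overlaps between genes were found from gene spans in a GENCODE mouse annotation. The lowest number of genes per barcode was 50. Versions and the use of strand are not given in the sources used here.

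CPM were computed from these counts, with exact Poisson or binomial 95% intervals. Counts were summed per tumour and barcode set, and a tumour entered a test with at least 5 barcodes in each set. Sums were tested with edgeR 4.0.16 (quasi-likelihood, TMM, filterByExpr at 3 counts and 10 in all, tumour as block because sets of 1 tumour come from the same animal; Benjamini-Hochberg over all genes tested), in R 4.3.3 and Python 3.11.15. DESeq2 1.42.0, RLE scaling, no filter, no block, each tumour left out, a mitochondrial limit of 10%, Scrublet doublets left out, a looser marker call and another seed were alternatives. The mitochondrial limit came with a minimum of 100 genes per barcode, except between depth sets. Doublets were otherwise kept. The method was tested on simulated data with the same dispersion set for all genes, and no result above rests on that test. Correlations of set deviations within a tumour were 0.0400 to 0.184. Likeness genes were the 5 with the largest pooled CPM ratio, with at least 20 counts and a higher value in each tumour with at least 10 barcodes of the member. Members, lists and tests were chosen with earlier results of these data known.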

Additional observations from a re-analysis of the deposited data

How the results depend on the processing

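Of the values of single members under alternatives, 247 kept their direction and side of the threshold, 27 kept the direction and lost the call, and 13 changed sign, all of them without a call in either fit; the cause was not tested. These were, as log2 differences, Igf2 in astrocyte barcodes with no limit on the marker share, an alternative chosen after seeing the data (0.77), Insr there with RLE scaling (0.52) and DESeq2 (0.62), Igf2 between cycle sets without tumour 3 (0.072, with a lowest value of -0.43 with a tumour left out), without doublets (0.085) and with another seed (0.43), Irs1 between cycle sets with another seed (-0.17), Igf1r between neuronal sets without tumour 3 (0.20, with a lowest value of -0.32), with the mitochondrial limit (0.022) and with another seed (0.16), Igf2 there with the mitochondrial limit (0.88) and another seed (0.59), and Irs2 between depth sets without tumour 3 (-0.56, with a highest value of 0.92). Counts of genes called moved more than 1.5 times under many settings. For myeloid against lineage barcodes they were 305 with RLE scaling, 202 in DESeq2, 236 with no filter, 47 with the mitochondrial limit and 97 without doublets, both on tumours 1 and 3 alone because tumour 2 fell below 5 myeloid barcodes, 121 with no limit on the marker share, and 83 to 159 with each tumour left out, against 458. With astrocyte barcodes they were 11 with RLE scaling, 20 in DESeq2, 19 with no filter, 135 without the replicate block, 11 with no limit on the marker share and 0 without doublets (edgeR, where 266 passed an unadjusted p of 0.05), against 6. Between cycle sets they were 58 in DESeq2, 95 without the block and 34 to 344 with each tumour left out, against 231. Between neuronal sets they were 32 in DESeq2, 21 with no filter, 39 without the block and 0 to 22 with each tumour left out (0 without tumour 2, where 764 passed an unadjusted p of 0.05 in edgeR), against 182. Between depth sets they were 323 in DESeq2, 138 without the block and 9 to 1568 with each tumour left out, against 888. The split of higher against lower calls in myeloid barcodes was 151 to 154 with RLE scaling, against 146 to 312. With all barcodes under 200 counts as the shallow set, Igf1r (edgeR adjusted p = 0.0826) and Igfbp5 (0.302) lost their calls and Igf2 (0.00258) did not. DESeq2 gave no adjusted p for these 3. Not run, for want of barcodes, were all tests of vascular barcodes, and those of astrocyte barcodes without tumour 1, without tumour 3 and with the mitochondrial limit. Depth limits every value of single classes and sets, those of Igfbpl1 in myeloid barcodes and in tumour 2 included.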
